A study of Mus musculus with 7 samples.

Results

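Glycolysis splits glucose into pyruvate in the cytosol, and pyruvate is then either reduced to lactate and exported or carried into mitochondria and oxidised. The 38 genes described here encode this route: the glucose carriers and hexokinases, the glycolytic enzymes, the bifunctional PFKFB enzymes that set the level of fructose 2,6-bisphosphate (the main allosteric activator of phosphofructokinase), the lactate dehydrogenases and monocarboxylate carriers, and the mitochondrial pyruvate carrier, pyruvate dehydrogenase and its kinases. They were chosen by gene name, as the rows of the count table named after members of this pathway, and make up 38 of 48440 rows. The developing retina and its photoreceptors are known for aerobic glycolysis, in which glucose is converted to lactate even where oxygen is available. *Pkm*, which encodes the muscle-type pyruvate kinase, is a textbook target of the splicing repressor PTBP1.

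Whole retinas of E16 mouse embryos were measured by bulk RNA-seq in 7 libraries, each from a pool of 4 to 6 retinas. All carried the Chx10-Cre transgene, which is active in retinal progenitors and their descendants but not in vessels, blood, pigmented epithelium or lens. The single WT library was from Chx10Cre control retinas with no floxed allele, the 3 Het libraries were from Chx10Cre;Ptbp1lox/WT retinas and the 3 KO libraries from Chx10Cre;Ptbp1lox/lox retinas. Levels are in CPM, read counts put on a common library size by TMM, and KO was compared with Het by edgeR's quasi-likelihood test. A gene is said to have risen or fallen in KO at a Benjamini-Hochberg adjusted p below 0.05 over the 20019 genes tested together with a change of more than 1.2-fold (the fold-change limit). WT had no replicate and enters as a value without error.

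*Ptbp1*, the deleted gene, was at 381 CPM in WT, at 210, 219 and 234 CPM in Het1 to Het3, and at 27.9, 6.04 and 46.9 CPM in KO1 to KO3, so each KO library was far below each Het library but the remainder differed among them. Counts on genes ranged from 120593979 to 171117305 per library. The 10 progenitor markers were each at 75.2 CPM or more in every library and summed to 6395 to 6789 CPM. Of these, 2 fell in KO (20%, against 3.21% of all genes tested), *Sfrp2* by 1.05 and *Fgf15* by 0.49 on the log2 scale, and 0 rose. Of 14 photoreceptor markers tested, 9 rose in KO (64.3%, against 4.01% of all genes tested) and 0 fell, while the adult cone marker *Arr3* stayed at or below 0.152 CPM. Of 8 ganglion cell markers 2 fell, *Isl1* and *Elavl4* (25%, against 3.21% of all genes tested), 0 rose, and DESeq2 called 4 lower. In 5 of the 8 (62.5%, against 17.7% of all genes tested) every KO library lay below every Het library. *Nefl* went the other way without being called, at 286, 337 and 328 CPM in Het and 369, 388 and 343 CPM in KO. The Het1 library stood apart: skeletal muscle markers summed to 318 CPM there against 10.1 to 12.8 CPM in the other 6 libraries, and pigmented cell markers to 543 CPM against 23.4 to 66.9 CPM, while the muscle marker *Tnnc2* and the pigmented epithelium marker *Rpe65* were at 0 in 5 libraries. Erythroid markers summed to 190 to 532 CPM in Het, to 299 CPM in KO3, but only to 37.6 CPM in KO1 and 25 CPM in KO2.

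Of the 38 members, all of which passed the filter on low counts, 2 rose in KO and 0 fell. The phosphofructo-2-kinase gene *Pfkfb3* and the platelet-type phosphofructokinase gene *Pfkp* were the members that rose, 5.26% of the list against 4.01% of all genes tested that rose and 3.21% that fell. The share of members that rose was thus close to the background. The number of genes called over all genes tested, 1445, itself depended on single libraries, at 386 without Het2, 496 without Het3 and 612 without KO2. The median log2 fold change was -0.01 over the members and -0.00473 over all genes tested, with 18 members above 0 and 20 below. At an unadjusted p below 0.05, 8 members were higher and 6 lower by edgeR, while DESeq2 called 4 members higher and 0 lower. Over all genes DESeq2 called 2070, both directions together. Neither the share of all genes at the unadjusted p nor the DESeq2 share by direction is given. Counts of either kind, here and for the lists above and below, thus cannot be set against a background. Every KO library lay above every Het library in 9 members (23.7%, against 18.6% of all genes tested), and below in 5 members (13.2%, against 17.7%). WT lay nearer to the Het mean than to the KO mean in 25 of 38 members and in 13460 of the 20019 genes tested. In whole tissue a lower level can come from fewer cells of a type or from less RNA per cell, and these cannot be told apart.

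**Figure D1:**
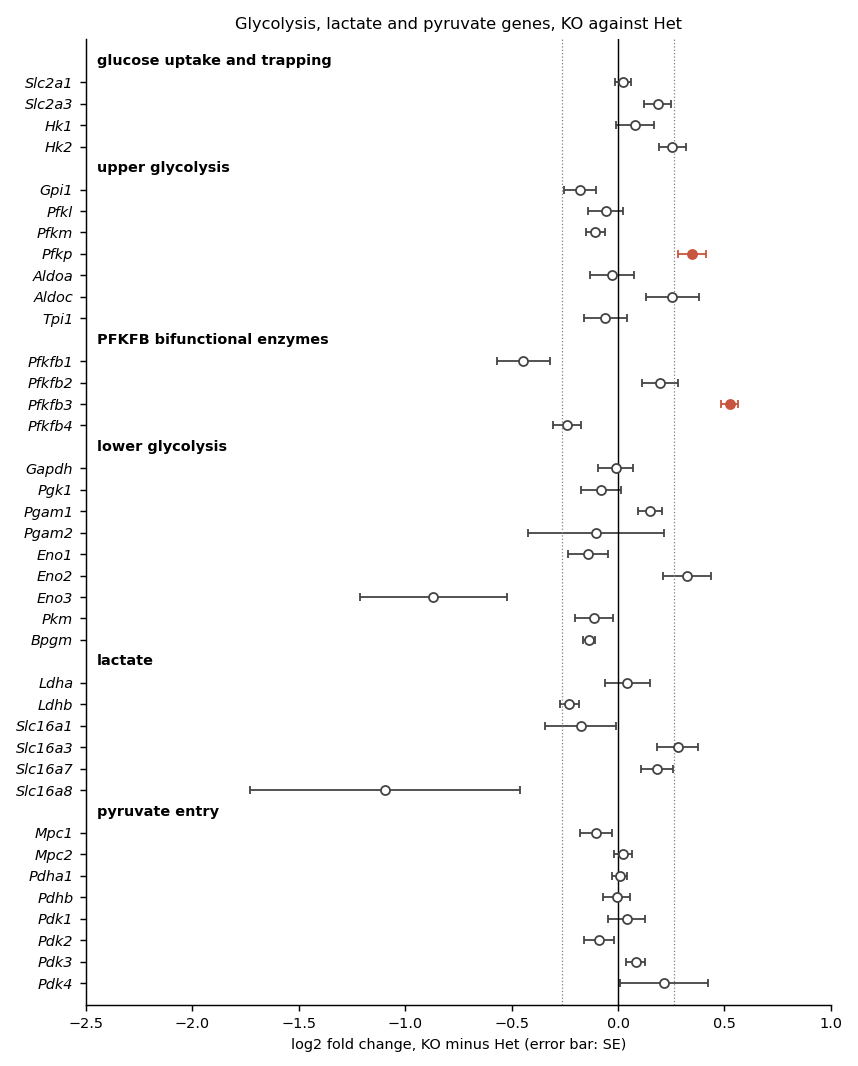
Log2 fold change of KO over Het (x axis) for the 38 members (y axis), grouped by role, with error bars of 1 SE from the edgeR fit. Filled red points are the 2 members that rose, *Pfkp* at 0.35 and *Pfkfb3* at 0.52, open points did not pass, and dotted lines mark the 1.2-fold limit in either direction.

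Shown first is the pair of mutually exclusive exons that make the M1 and M2 forms of pyruvate kinase, given because PTBP1 is known to repress the M1 exon while the gene-level count adds both forms. They lie in *Pkm* on GRCm38, on the + strand, the M1 exon at chr9:59675029-59675195 and the M2 exon at chr9:59675568-59675734, and were read from GENCODE transcripts. Both are 167 bases long and protein-coding, and 64 aligned bases differ (61.7% identity). The differing bases are in capitals.
Pkm M1 exon: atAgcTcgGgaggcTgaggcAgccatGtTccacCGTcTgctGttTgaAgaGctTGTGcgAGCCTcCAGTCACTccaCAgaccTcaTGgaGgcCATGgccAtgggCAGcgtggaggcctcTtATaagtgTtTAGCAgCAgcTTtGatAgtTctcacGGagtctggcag
Pkm M2 exon: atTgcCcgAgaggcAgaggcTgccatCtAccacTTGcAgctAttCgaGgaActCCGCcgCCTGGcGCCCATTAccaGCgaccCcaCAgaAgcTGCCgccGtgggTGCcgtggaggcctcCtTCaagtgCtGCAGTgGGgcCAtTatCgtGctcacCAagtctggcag
Equal length means that an exchange of 1 exon for the other would leave the gene's count unchanged, so the *Pkm* level below says nothing of the form. Splicing was not analysed here.

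Shown next are the RefSeq promoters (GRCm38.p6, 250 bases before to 50 after a transcription start) of the members that rose, given because hypoxia response genes rose beside them. Capitals mark the letters ACGTG or GCGTG on either strand, the core recognised by hypoxia-inducible factors. In the first *Pfkfb3* promoter, at chr2:11502041-11502340 on the - strand, there were 4 matches, 2 of which overlap in the palindrome CACGTG.
Pfkfb3 promoter 1: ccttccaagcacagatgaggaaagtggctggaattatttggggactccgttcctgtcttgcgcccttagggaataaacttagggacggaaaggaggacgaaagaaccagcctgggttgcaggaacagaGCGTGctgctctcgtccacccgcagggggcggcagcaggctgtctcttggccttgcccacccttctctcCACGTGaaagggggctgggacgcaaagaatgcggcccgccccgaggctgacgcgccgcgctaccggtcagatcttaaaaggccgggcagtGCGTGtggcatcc
The other *Pfkfb3* promoter, at chr2:11553880-11554179 on the - strand, held 1 match.
Pfkfb3 promoter 2: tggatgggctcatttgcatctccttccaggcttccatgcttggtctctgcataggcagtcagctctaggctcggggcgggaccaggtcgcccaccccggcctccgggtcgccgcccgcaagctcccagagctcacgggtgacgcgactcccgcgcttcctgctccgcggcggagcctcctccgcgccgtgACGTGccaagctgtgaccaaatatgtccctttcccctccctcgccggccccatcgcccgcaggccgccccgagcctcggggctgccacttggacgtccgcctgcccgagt
The *Pfkp* promoter, at chr13:6648722-6649021 on the - strand, held 4 matches, all of them GCGTG.
Pfkp promoter: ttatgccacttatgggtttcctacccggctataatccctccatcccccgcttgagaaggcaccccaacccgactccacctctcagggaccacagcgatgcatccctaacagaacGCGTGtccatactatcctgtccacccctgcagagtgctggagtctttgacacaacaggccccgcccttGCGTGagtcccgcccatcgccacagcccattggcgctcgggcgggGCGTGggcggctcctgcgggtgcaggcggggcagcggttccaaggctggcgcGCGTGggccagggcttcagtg
At least 1 such match was present in 40 of 56 promoters of the 36 members found in the RefSeq table (71.4%), in 20 of 26 promoters of 20 hypoxia response genes (76.9%) and in 43.8% of all 32851 promoters. For ACGTG alone the shares were 39.3%, 57.7% and 19.6%. The hypoxia list includes known targets of these factors, and glycolytic genes share this regulation, so a high share in either set follows from its choice. Overlapping promoters of the same gene, such as those of *Eno1* and of *Aldoa*, were counted separately. Promoters were not matched for base composition, and the shares carry no test. A match is a stretch of letters and not a shown binding site, and members that did not rise held them as well, such as *Ldha* with 7 in its first promoter and *Slc16a1* with 5.

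Among the glucose carriers and hexokinases, which bring glucose in and trap it as glucose 6-phosphate, 0 of 4 members were called in either direction by edgeR or DESeq2, with 2 higher and 0 lower at an unadjusted p below 0.05. *Slc2a1* (GLUT1), the main glucose carrier of the retina and the most abundant of the group per kb of exon (211 CPM per kb), was at 696 CPM in WT, at 739, 725 and 758 CPM in Het and at 775, 753 and 729 CPM in KO. These levels overlapped, with a log2 fold change of 0.02 ± 0.0385 (SE; edgeR adjusted p = 0.731). The high-affinity neuronal carrier *Slc2a3* (GLUT3) was at 30.6 to 32.2 CPM in Het and 33.7 to 39.2 CPM in KO, without overlap but below the threshold (log2 fold change 0.19, edgeR adjusted p = 0.109). *Hk2*, the inducible hexokinase, was at 41.8 CPM in WT, at 43.1, 45.5 and 50.5 CPM in Het and at 52.8, 57.2 and 55.9 CPM in KO. The Het and KO libraries of *Hk2* did not overlap, and its log2 fold change of 0.25 ± 0.0625 (SE) passed the adjusted p (0.0482 by edgeR) while missing the fold-change limit. The widely expressed *Hk1* spread more widely in KO, from 195 to 254 CPM, around the Het range of 211 to 219 CPM.

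The upper part of glycolysis converts glucose 6-phosphate to triose phosphates, and 1 of its 7 members rose (14.3%, against 4.01% of all genes tested). *Pfkp* (ENSMUSG00000021196, chromosome 13, 6579768 to 6648777, - strand) was at 44.4 CPM in WT, at 45.2, 44.8 and 39.4 CPM in Het1 to Het3 and at 58.1, 54.7 and 51.9 CPM in KO1 to KO3. Every KO library was above the WT and Het libraries, a 1.27-fold difference of means with a log2 fold change of 0.35 ± 0.0649 (SE; edgeR adjusted p = 0.0232). The call depended on single libraries: leaving out Het2 took the adjusted p to 0.0783, Het3 to 0.0576, KO1 to 0.0501 and KO2 to 0.0852, with log2 fold changes from 0.29 to 0.39 as libraries were left out. Its paralogs for the same committed step were not called. *Pfkl*, the liver-type enzyme, was at 411 to 440 CPM in Het and 363 to 456 CPM in KO, and *Pfkm*, the muscle-type enzyme, was at 104, 102 and 103 CPM in Het and 102, 94.1 and 90.7 CPM in KO (log2 fold change -0.11, edgeR adjusted p = 0.176). *Pfkm* did not stand out in Het1, where the muscle markers were high.

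None of the other members of this part of glycolysis was called by edgeR or DESeq2, with 0 of them higher and 1 lower (*Gpi1*) at an unadjusted p below 0.05. *Tpi1* (triose phosphate isomerase), the most abundant of them per kb of exon at 296 CPM per kb, was at 851, 868 and 795 CPM in Het and at 930, 780 and 703 CPM in KO (log2 fold change -0.06 ± 0.101 SE, edgeR adjusted p = 0.726). *Gpi1* (glucose phosphate isomerase) was at 483, 478 and 460 CPM in Het and at 463, 416 and 376 CPM in KO, so that KO1 reached into the Het range (log2 fold change -0.18 ± 0.0749 SE, edgeR adjusted p = 0.166). Without KO1 its adjusted p was 0.0424, still within the fold-change limit. *Aldoa* (aldolase A) was at 685 to 769 CPM in Het and 618 to 822 CPM in KO. *Aldoc*, the aldolase of brain, was low at 5.6 to 7.14 CPM in Het and 6.79 to 8.3 CPM in KO.

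The PFKFB enzymes make and break fructose 2,6-bisphosphate, and *Pfkfb3* encodes the form with the highest kinase over phosphatase activity. *Pfkfb3* (ENSMUSG00000026773, chromosome 2, 11471433 to 11554077, - strand) was at 42.2 CPM in WT, at 43.8, 43.3 and 45.4 CPM in Het1 to Het3 and at 61.7, 67 and 61.9 CPM in KO1 to KO3. The KO libraries stood clear of the other 4, at 1.44 times the Het mean, and this was the largest change per SE among the members (log2 fold change 0.52 ± 0.0407 SE, edgeR adjusted p = 0.0029). It was called in all 14 alternative fits, with log2 fold changes from 0.48 to 0.55 and adjusted p of at most 0.023. Among the 14, the setting of adjusted p alone only drops the fold-change limit from the main fit, so no call can be lost there. *Pfkfb4* was at 12.1, 12.3 and 11.8 CPM in Het and at 9.57, 10.4 and 10.8 CPM in KO, below without overlap but not called (log2 fold change -0.24 ± 0.0642 SE, edgeR adjusted p = 0.06). *Pfkfb1*, a form known from liver and muscle, was near 1 CPM, at 2.29 CPM in WT, at 1.51, 1.7 and 1.44 CPM in Het and at 1.21, 1.1 and 1.1 CPM in KO, again below without overlap and not called (log2 fold change -0.44, edgeR adjusted p = 0.0684). *Pfkfb2* was at 4.88 to 5.26 CPM in Het and 5.41 to 6.22 CPM in KO (log2 fold change 0.20, edgeR adjusted p = 0.173).

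Set against each other per kb of exon, *Pfkfb3* made up 62.1% ± 1.26 (SD, n = 3) of the summed PFKFB level in Het and 72.5% ± 1.28 in KO. *Pfkfb4* went from 26.4% ± 0.609 in Het to 18.1% ± 0.902 in KO, and the groups did not overlap for either. Without the division by length the *Pfkfb3* share differed by 8.46 percentage points in place of 10.4. These shares restate the levels above and carry no test. Among phosphofructokinases *Pfkp* remained minor, at 3.31% ± 0.209 in Het and 4.4% ± 0.175 in KO per kb of exon, and at 7.6% ± 0.464 and 9.92% ± 0.432 without the division by length.

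**Figure D2:**
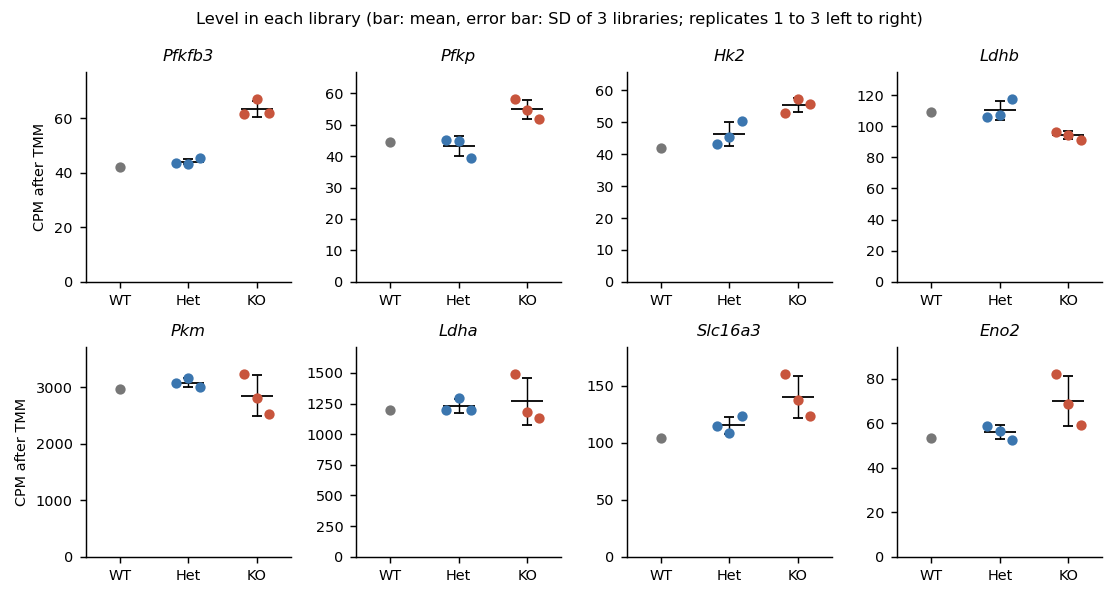
CPM after TMM scaling (y axis, from 0) of 8 members in each library, with WT in grey, Het in blue and KO in red, replicates 1 to 3 from left to right, bars at the group mean and error bars of 1 SD over 3 libraries. KO points sit above all Het points for *Pfkfb3*, *Pfkp*, *Hk2* and *Eno2* and below them for *Ldhb*, while for *Pkm* and *Ldha* the KO points spread around the Het points.

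The lower part of glycolysis yields ATP and pyruvate and holds the most abundant members. Of its 9 members edgeR called 0 in either direction, with 2 higher and 2 lower at an unadjusted p below 0.05, and DESeq2 called 1 higher. *Pkm* (chromosome 9, 59656368 to 59679375, + strand), at 594 CPM per kb the highest of all members per length, was at 2970 CPM in WT, at 3078, 3166 and 3011 CPM in Het and at 3233, 2808 and 2522 CPM in KO. The KO libraries lay on both sides of the Het range, and the summed level of its forms gave a log2 fold change of -0.11 ± 0.0907 (SE; edgeR adjusted p = 0.442). *Gapdh* was at 1542 to 1574 CPM in Het and at 1742, 1535 and 1377 CPM in KO. *Pgk1* (phosphoglycerate kinase) was at 592 to 634 CPM in Het and 518 to 673 CPM in KO, and *Pgam1* (phosphoglycerate mutase) at 217 to 229 CPM in Het and 233 to 268 CPM in KO. *Bpgm* makes 2,3-bisphosphoglycerate in red cells and was at 67.1, 68 and 69.7 CPM in Het and 62.6, 60.8 and 62.7 CPM in KO. Its small difference (log2 fold change -0.14 ± 0.028 SE) passed the adjusted p (0.029 by edgeR) but not the fold-change limit. Erythroid markers summed to 37.6, 25 and 299 CPM in KO1 to KO3 and to 190 to 532 CPM in Het, and their part in the *Bpgm* level was not tested.

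The enolases differed among themselves. *Eno1*, the ubiquitous form, was at 2163, 2289 and 2279 CPM in Het and at 2302, 2038 and 1765 CPM in KO (log2 fold change -0.14 ± 0.095 SE, edgeR adjusted p = 0.359). *Eno1b*, listed outside the 38 members, was at 129, 70.6 and 109 CPM in Het and at 193, 194 and 208 CPM in KO, and rose (log2 fold change 0.95 ± 0.199 SE, edgeR adjusted p = 0.032). The assignment of reads between them is uncertain, because 72.2% of the 50-base windows of the *Eno1* transcript and 84.5% of those of *Eno1b* occur in other genes. The sum of both ranged from 2292 to 2388 CPM in Het and from 1973 to 2495 CPM in KO and overlapped. Leaving out Het3, KO1, KO2 or KO3 took the adjusted p of *Eno1b* to between 0.0601 and 0.0955.

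*Eno2*, the neuronal enolase, was at 53.5 CPM in WT, at 58.7, 56.4 and 52.6 CPM in Het and at 82, 68.8 and 59.4 CPM in KO. The groups did not overlap, but KO3 lay within 1 CPM of Het1 and the difference was not called (log2 fold change 0.33 ± 0.113 SE, edgeR adjusted p = 0.111); without KO3 it was 0.43 (edgeR adjusted p = 0.0312), and DESeq2 called it as well (adjusted p = 0.0121). *Eno3* and *Pgam2*, the forms of skeletal muscle, were high in Het1 with the muscle markers. *Eno3* was at 13.9 CPM in Het1, at 5.92 and 5.95 CPM in the other Het libraries and at 4.29 to 5.38 CPM in KO, and its log2 fold change of -0.87 became -0.33 without Het1 (edgeR adjusted p = 0.159). *Pgam2* was at 6.47 CPM in Het1, 2.81 and 2.98 CPM in Het2 and Het3 and 3.73 to 3.88 CPM in KO, and its log2 fold change turned from -0.10 to 0.40 without Het1, with neither called.

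The lactate group holds the dehydrogenases that interconvert pyruvate and lactate and the proton-linked carriers that move lactate across membranes. Of its 6 members edgeR called 0, with 2 higher and 1 lower at an unadjusted p below 0.05, and DESeq2 called 1 higher. *Ldha*, whose subunit favours lactate formation and which led the group at 376 CPM per kb, was at 1199, 1299 and 1199 CPM in Het and at 1489, 1185 and 1133 CPM in KO (log2 fold change 0.04 ± 0.105 SE, edgeR adjusted p = 0.814). *Ldhb*, whose subunit favours lactate oxidation, was at 109 CPM in WT, at 106, 107 and 117 CPM in Het and at 96.2, 94.6 and 91.2 CPM in KO. Every KO library of *Ldhb* was below the WT and Het libraries, and its log2 fold change of -0.23 ± 0.0465 (SE) passed the adjusted p (0.0292 by edgeR) but not the fold-change limit. Per kb of exon, *Ldhb* made up 15.9% ± 1.14 (SD, n = 3) of the dehydrogenase level in Het and 13.6% ± 1.43 in KO. Without the division by length the shares were 8.22% ± 0.646 and 6.97% ± 0.781.

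*Slc16a3* (MCT4), the low-affinity exporter of glycolytic cells, was at 104 CPM in WT, at 114, 109 and 123 CPM in Het and at 160, 137 and 123 CPM in KO. KO1 and KO2 lay above all Het libraries while KO3 matched Het3, and the difference was not called (log2 fold change 0.28 ± 0.0975 SE, edgeR adjusted p = 0.114). DESeq2 called it (adjusted p = 0.0137), as did edgeR without KO3 (log2 fold change 0.37, adjusted p = 0.0434). *Slc16a1* (MCT1), a widely used carrier also known from endothelium and red cells, ran the other way among the KO libraries, at 50.9, 47.9 and 72.4 CPM in KO against 57.3 to 72.8 CPM in Het. The erythroid sums were lowest in the same KO1 and KO2 libraries, and the 11 endothelial markers summed to 587, 490 and 506 CPM in KO1 to KO3 and to 396 to 419 CPM in Het. Most of that sum was *Kdr*, which rose (log2 fold change 0.44, edgeR adjusted p = 0.0186). The other 10 markers, set apart after these values were seen, summed to 25.2, 20.9 and 38.5 CPM in KO1 to KO3 and to 29.9 to 54.5 CPM in Het, with 0 of them called by edgeR (0 higher and 2 lower at an unadjusted p below 0.05, and *Tek* lower by DESeq2). Of these 10, 8 had a log2 fold change below 0, the exceptions being *Cldn5* (0.23) and *Egfl7* (0.14). Of the 12 erythroid markers tested edgeR called 0 in either direction (0 higher and 5 lower at an unadjusted p below 0.05, 3 lower by DESeq2), and *Hbb-bh1* was at 0 in 4 libraries; the part of either cell type in the *Slc16a1* level was not tested. *Slc16a7* (MCT2), a high-affinity carrier, was at 10.1 to 11.5 CPM in Het and 11.8 to 13.1 CPM in KO. *Slc16a8* (MCT3), the carrier of the pigmented epithelium, was at 5.56 CPM in Het1, where pigmented cell markers were high, and at 0.868 to 1.49 CPM in the other 6 libraries, so that its log2 fold change of -1.09 became 0.08 without Het1.

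**Figure D3:**
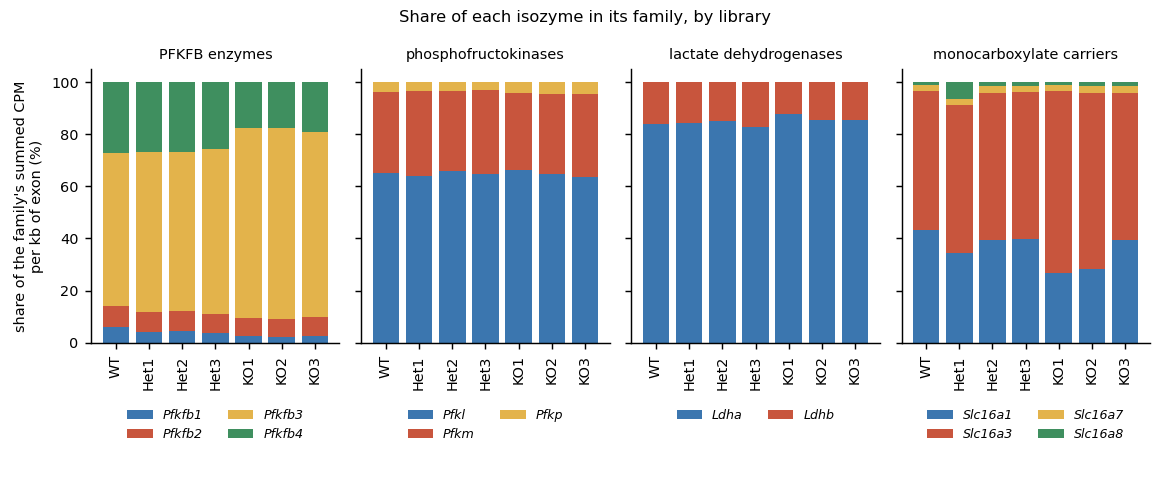
Share of each gene in the summed CPM per kb of exon of its family (y axis, in percent) in each of the 7 libraries (x axis), for PFKFB enzymes, phosphofructokinases, lactate dehydrogenases and monocarboxylate carriers. The *Pfkfb3* share is 71% to 73.3% in the KO libraries and 60.9% to 63.4% in the Het libraries, and the *Slc16a3* share is 69.8%, 67.6% and 56.1% in KO1 to KO3 against 56.4% to 56.9% in Het.

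At the entry of pyruvate into mitochondria, edgeR called 0 of 8 members in either direction, DESeq2 called 0, and 0 had an unadjusted p below 0.05. *Pdha1*, the catalytic E1 alpha subunit of pyruvate dehydrogenase and the most abundant of the group per kb of exon (24.5 CPM per kb), was at 90.5 to 91.6 CPM in Het and 89.3 to 95.5 CPM in KO (log2 fold change 0.01 ± 0.0332 SE). *Pdhb*, the E1 beta subunit, was at 77.7 to 89.3 CPM in Het and 79.8 to 88.6 CPM in KO. The carrier subunits *Mpc1* and *Mpc2* were at 8.2 to 8.73 CPM and 32.3 to 33.7 CPM in Het and at 7.33 to 8.44 CPM and 31.7 to 34.3 CPM in KO. Of the kinases that switch pyruvate dehydrogenase off, *Pdk1*, *Pdk2* and *Pdk3* had log2 fold changes of 0.04, -0.09 and 0.08, and *Pdk4* was nearly silent, at 0.361 to 0.533 CPM in all 7 libraries.

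The abundant members varied together among the KO libraries. In all 8 members above 500 CPM on average (*Pkm*, *Eno1*, *Gapdh*, *Ldha*, *Tpi1*, *Slc2a1*, *Aldoa* and *Pgk1*) KO1 was the highest and KO3 the lowest KO library, as in 53.3% of the 214 genes tested at that level. Over all members the same held for 20 of 38 (52.6%), including 7 of 7 in the upper part of glycolysis, against 22.4% of all genes tested. The latter hold more genes at low levels, with 10051 of 20019 above 10 CPM on average against 30 of 38 members. The order was not particular to glycolysis. It held for 7 of 11 pentose phosphate genes (63.6%), 9 of 17 citric acid cycle genes (52.9%) and 32 of all 113 other pathway genes tested (28.3%). Relative to the Het mean of each gene, these 8 members ran from 103% to 121% in KO1, from 90.8% to 102% in KO2 and from 78.7% to 98.4% in KO3, with WT at 93.4% to 97.5%. The 15 enzymes from *Gpi1* to *Pkm* summed to 10202 to 10629 CPM in Het, a spread of 214 CPM (SD, n = 3), and to 11149, 9717 and 8692 CPM in KO, a spread of 1234 CPM. The KO mean of this sum was 94.6% of the Het mean. The 214 genes tested above 500 CPM leaned the same way, with 156 log2 fold changes below 0, 58 above and a median of -0.0611. For the 8 members at that level the median was -0.0441, with 6 below 0 and 2 above. The TMM factors were 0.991, 1.005 and 1.032 in KO1 to KO3 and 0.988 to 0.993 in Het. Several measures differed among the same KO libraries: residual *Ptbp1* was at 27.9, 6.04 and 46.9 CPM in KO1 to KO3, photoreceptor markers summed to 1161, 1034 and 998 CPM, erythroid markers to 37.6, 25 and 299 CPM, lens markers to 3.34, 8.66 and 69.8 CPM, and the pools held 4, 4 and 6 retinas. *Lim2*, a lens marker, was at 0 in all 7 libraries, and *Pde6h*, a cone marker, in 1. Their part in the spread was not tested.

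**Figure D4:**
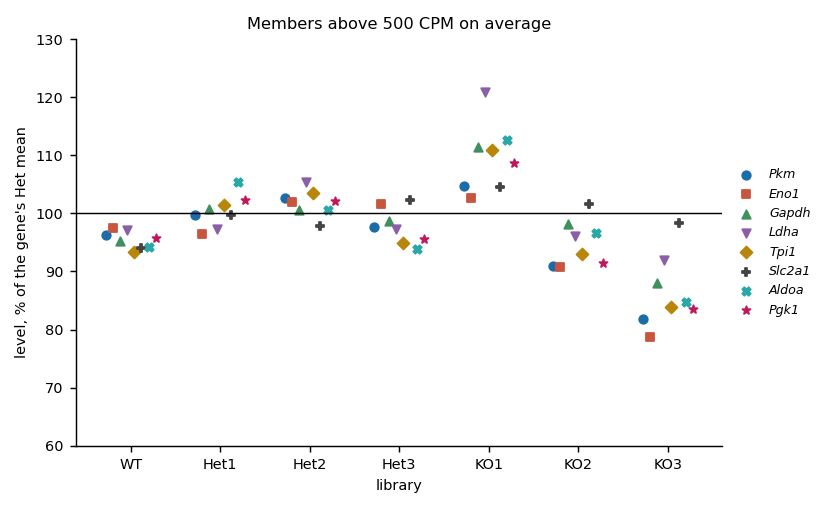
Level of the 8 members above 500 CPM on average in each library (x axis), as percent of that gene's mean over the 3 Het libraries (y axis, from 60 to 130), with 1 symbol per gene. WT and Het points lie between 93.4% and 106%, while the KO1 points reach 121% and the KO3 points go down to 78.7%.

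Near-identical copies limit the gene assignment for some members. For 13 members over 5% of the 50-base windows of the transcript occur in another gene, led by *Gapdh* (82.5%), *Eno1*, *Pgk1* (68%), *Pgam1* (41.5%) and *Pkm* (34.4%). Apart from *Eno1b*, the copy sharing most windows was at 27.3% of the member's level for *Mpc1* (*Mpc1-ps*), 2.43% for *Ldhb* (*Gm5514*) and under 0.1% for the others looked up. For *Ldha* that copy was not in the count table. Further copies, among 218 genes sharing windows with *Gapdh*, were not looked up. As the handling of reads that map to several places is not given, a low count on a copy does not show where shared reads went. For the members that rose, 0 windows of *Pfkp* and 0.61% of those of *Pfkfb3* occur elsewhere.

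Beyond the 38 members, 121 genes of neighbouring pathways were followed, of which 113 were tested, 9 rose (7.96%, against 4.01% of all genes tested) and 3 fell (2.65%, against 3.21%). Among other glycolytic enzymes, 2 of 15 rose (13.3%, against 4.01% of all genes tested), *Eno1b* and *Hkdc1*. *Hkdc1*, a hexokinase-like gene, was at 38.6 CPM in WT, at 41.9, 38.4 and 40 CPM in Het and at 81.1, 65.6 and 65.3 CPM in KO. Its KO libraries stood above the others by a wide margin (log2 fold change 0.82 ± 0.0886 SE, edgeR adjusted p = 0.0065), and it was called in all 14 alternative fits.

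Among 24 other glucose and monocarboxylate carriers and their chaperones, 2 rose (8.33%, against 4.01% of all genes tested) and 2 fell (8.33%, against 3.21%). *Slc2a13*, a proton-coupled inositol carrier, had a log2 fold change of 0.32 (edgeR adjusted p = 0.0233), a call lost in 5 of 14 alternative fits. The insulin-regulated glucose carrier *Slc2a4* (GLUT4) fell by 0.53 on the log2 scale, from 4.94 to 5.62 CPM in Het to 3.36 to 4.3 CPM in KO (edgeR adjusted p = 0.0439), and *Emb* (embigin), a chaperone of monocarboxylate carriers, fell by 0.29 on the log2 scale (edgeR adjusted p = 0.0259). The *Slc2a4* call was lost in 7 of 14 alternative fits, with adjusted p up to 0.13, and the *Emb* call in 4, with adjusted p up to 0.0921. *Bsg* (basigin), the main chaperone of these carriers and the most abundant gene of the list, had a log2 fold change of -0.07 (edgeR adjusted p = 0.464).

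Other routes of glucose carbon showed few calls. In the pentose phosphate pathway 1 of 11 genes fell (9.09%, against 3.21% of all genes tested) and 0 rose. *H6pd*, the pathway's dehydrogenase of the endoplasmic reticulum, fell by 0.27 on the log2 scale (edgeR adjusted p = 0.0305). That call was lost in 5 of 14 alternative fits, with adjusted p up to 0.108. The transketolase gene *Tkt*, the most abundant there, had a log2 fold change of -0.05. In the citric acid cycle edgeR called 0 of 17 genes, with 1 higher and 2 lower at an unadjusted p below 0.05 and 1 called lower by DESeq2. Among 10 other pyruvate enzymes edgeR and DESeq2 called 0, with 1 higher and 1 lower at an unadjusted p below 0.05. Among 12 genes of gluconeogenesis and glycogen edgeR called 0, with 1 higher and 2 lower at an unadjusted p below 0.05 and 1 called lower by DESeq2. That gene was *Pygm*, the muscle glycogen phosphorylase, at 7.15 CPM in Het1, 2.41 and 2.39 CPM in Het2 and Het3 and 1.22 to 1.31 CPM in KO.

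Of 24 genes of the hypoxia response, which includes known targets of hypoxia-inducible factors that share this regulation with glycolytic genes, 5 rose and 0 fell by edgeR (11 higher and 2 lower at an unadjusted p below 0.05, and 7 higher and 2 lower by DESeq2). That is 20.8% of the list, against 4.01% of all genes tested, with a median log2 fold change of 0.14. As the list was chosen with earlier results of these data known, the difference between these shares carries no test. *Ddit4* (REDD1), an inhibitor of mTORC1 signalling, was at 55.6 CPM in WT, at 55.4, 56.4 and 54.2 CPM in Het and at 94.2, 101 and 93 CPM in KO (log2 fold change 0.79 ± 0.0389 SE, edgeR adjusted p = 0.00064). *Vegfa*, the vascular growth factor, was at 55.9 CPM in WT, at 59, 55.6 and 52.8 CPM in Het and at 76, 78.6 and 79.1 CPM in KO (log2 fold change 0.48 ± 0.0447 SE, edgeR adjusted p = 0.00442). In both genes the KO libraries lay close together and far above the rest, as in *Pfkfb3*, and both were called in all 14 alternative fits. *Ddit4*, *P4ha1* and *Hkdc1* lie on chromosome 10 (promoters from 59951721, 59323046 and 62422408), as does the deleted *Ptbp1* (79854427 to 79864771). *Prdm1*, counted above among the photoreceptor markers that rose, is on chromosome 10 too (44437177 to 44528501). It was at 35.8 CPM in WT, 91.6 to 117 CPM in Het and 162 to 164 CPM in KO (log2 fold change 0.69, edgeR adjusted p = 0.00924). The members *Hk1*, *Pfkl* and *Slc16a7*, also on chromosome 10, were not called. The part of this shared chromosome in these levels was not tested.

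The other hypoxia response genes that rose were *Ndrg1*, with a log2 fold change of 0.37 (edgeR adjusted p = 0.0413), *Ankrd37* with 0.34 (0.0489) and the collagen prolyl hydroxylase gene *P4ha1* with 0.27 (0.0165). These calls were less stable: that of *Ankrd37* was lost in 8 of 14 alternative fits (edgeR adjusted p up to 0.134, and lost with any 1 library left out), that of *Ndrg1* in 4 (up to 0.133) and that of *P4ha1* in 4 (up to 0.0727). *Hif1a*, which encodes the oxygen-regulated subunit, was at 420 to 483 CPM in Het and 472 to 535 CPM in KO and overlapped (log2 fold change 0.15, edgeR adjusted p = 0.213). *Hif3a* was at 63.9 to 69.6 CPM in Het and 43.4 to 59.7 CPM in KO (log2 fold change -0.43, edgeR adjusted p = 0.0613). Beyond the 5 genes that rose, DESeq2 called *Adm*, *Egln3*, *Epas1* and *Hif3a*, and the 2 genes it called lower were among these. The list was put together with earlier results of these data known.

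**Figure D5:**
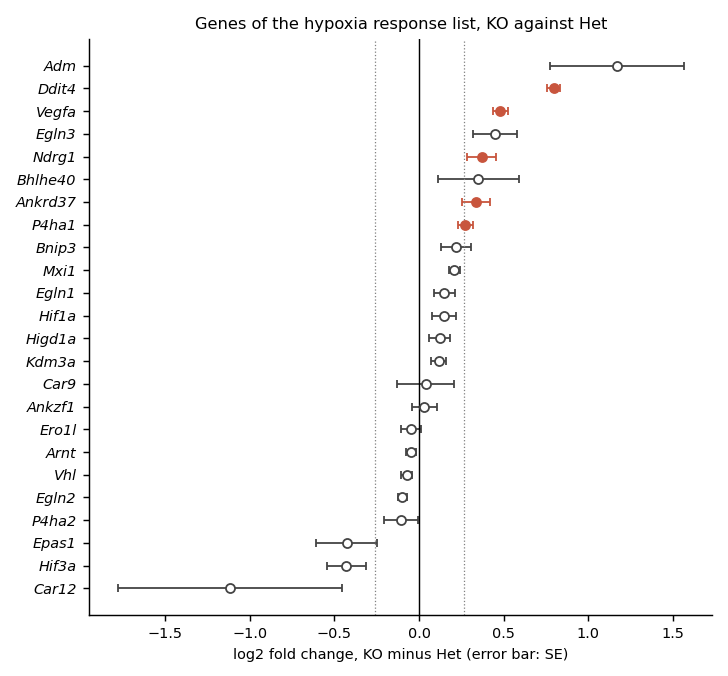
Log2 fold change of KO over Het (x axis) for the 24 hypoxia response genes (y axis), with error bars of 1 SE from the edgeR fit and dotted lines at the 1.2-fold limit. The 5 filled red points, from *P4ha1* at 0.27 to *Ddit4* at 0.79, passed the test, and the others, open, run from -1.12 (*Car12*, at 4.13 CPM in Het1 and 0.524 to 1.4 CPM elsewhere) to 1.17 (*Adm*, below 1 CPM in all 7 libraries).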

How the data were processed

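The authors aligned paired reads of a stranded mRNA kit to GRCm38 (mm10) by STAR, as run by rMATS-turbo, and counted them on GENCODE M10 genes by featureCounts. The deposited table holds the raw counts. Use of strand and of reads that map to several places is not given in the sources used here. It is also not stated that pools came from separate litters, so p-values measure the spread between these libraries. The table held 0 unmapped value columns.

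Counts were fitted with edgeR 4.0.16 (R 4.3.3): filterByExpr on genotype, TMM, and 1 quasi-likelihood fit of all 7 libraries with a mean per genotype, contrast KO minus Het. An SE is the log2 fold change over the square root of F. With 3 libraries against 3 an exact permutation test cannot give a p below 0.1. No pair of replicates was a copy, with differences of 14.0 to 53.2 times counting variance. Exon lengths, coordinates and shared 50-base windows come from a later GENCODE annotation (M21) of GRCm38 and its transcripts. Scripts were tested on simulated data.

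Members and lists were chosen with earlier results of these data known. Named with values were all members, of the other lists each called gene, the most abundant and some with large changes; the 500 CPM limit and the names of *Hk2*, *Ldhb*, *Eno2*, *Slc16a3* and *Pfkfb4* were chosen after their values were seen. Some results on single genes are not reported here. Alternatives were DESeq2 1.42.0, RLE and upper-quartile scaling, no filter, a minimum of 10 counts per library, Het and KO alone, a replicate block, adjusted p alone, shares without length, and each Het or KO library left out. Adjusted p alone reuses the main fit without the fold-change limit, so it can add calls but lose none.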

Additional observations from a re-analysis of the deposited data

How the results depend on the processing

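With 3 libraries a group, differences near the threshold depended on single libraries. The 2 members higher in KO were 2 under RLE, upper-quartile, no filter, at least 10 counts and Het and KO alone, and 4 by DESeq2, which added *Eno2* and *Slc16a3*. On the adjusted p alone, 3 members were higher and 2 lower. With a library left out the number higher ran from 1 to 4 and the number lower stayed at 0. Over all genes, 1445 called became 2221 on the adjusted p alone and 386, 496 and 612 without Het2, Het3 and KO2. *Pfkp* was lost without Het2, Het3, KO1 or KO2, and *Hk2* passed without Het3. Among other pathway genes, 9 higher and 3 lower became 11 and 9 by DESeq2 and 12 and 6 on the adjusted p alone, and with a library left out 4 to 7 were higher and 0 to 8 lower. *Hkdc1*, *Ddit4* and *Vegfa* were called in all 14 alternatives, and the other calls named in the text were each lost in 4 to 8 of the 14. The lowest number higher came without Het2, Het3 or KO2, and without KO1 it was 5; without KO3, 8 were lower. Deviations of same-numbered Het and KO libraries from their group means correlated at -0.12, 0.256 and 0.0188. Those of differently numbered libraries correlated at -0.351 to 0.225. With deviations that sum to 0 over 3 libraries a group, these values cannot decide whether the replicate numbers pair the samples. With the replicate number as a block, 3 members (*Eno2* added) and 9 other pathway genes were higher and 0 and 1 lower, and *Pgam2* turned to 0.0137. Directions that turned with a library left out had log2 fold changes from -0.0109 to 0.179 for *Hk1*, -0.152 to 0.0156 for *Pfkl*, -0.14 to 0.069 for *Aldoa*, -0.176 to 0.0318 for *Tpi1*, -0.102 to 0.071 for *Gapdh*, -0.193 to 0.00318 for *Pgk1*, -0.311 to 0.397 for *Pgam2*, -0.0874 to 0.121 for *Ldha*, -1.46 to 0.0822 for *Slc16a8*, -0.0201 to 0.0265 for *Pdha1*, -0.0629 to 0.0348 for *Pdhb* and -0.0533 to 0.103 for *Pdk1*. The cause was not tested.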
